A study of Mus musculus with 24 samples.

Results

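The proximal mandible was compared with the proximal maxilla in mouse embryos that lack the TGF-beta receptor Alk5 in the neural crest. The members are the 4 arrays labelled knockout mandible proximal and the 4 labelled knockout maxilla proximal, chosen by their labels, 8 of the 24 arrays of the series. Alk5, gene symbol Tgfbr1, is a type I receptor that passes TGF-beta signals on to Smad2 and Smad3. Floxed Alk5 alleles (Wnt1cre;Alk5fl/+ crossed with Alk5fl/fl) were recombined by Cre under the Wnt1 promoter, which is active in the dorsal neural tube and the neural crest, so muscle, endothelium, epithelium and blood keep the receptor. Both groups compared carry this deletion, and both come from embryonic day 12.5 on a C57B6 background. Mutants were picked by cleft palate and calvarial defect, each jaw was cut into a proximal and a distal end, and total RNA was hybridised to Affymetrix Mouse430_2 arrays. Control littermates gave 2 arrays for each of the 4 jaw ends. The labels do not say which samples share an embryo or a pool, and p-values cover no more than the spread among these arrays, part of which may be technical.

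The mandible and the maxilla both grow from the first pharyngeal arch, whose mesenchyme comes from the neural crest. In that mesenchyme Dlx1 and Dlx2 are known to be active along the whole arch, while Dlx5 and Dlx6, and with them Dlx3 and Dlx4, are switched on by endothelin-1 signalling in the lower part and give it mandibular identity. Hand2, Gbx2, Pitx1 and Gsc are transcription factors that act below or beside this Dlx code in the mandible. Alx1 and Pax3 mark the frontonasal and upper face, and the cranial crest of the first arch is known to lack Hox expression, which begins in the second arch.

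Of 13837 genes tested, 210 differed between the proximal jaws at an adjusted p under 0.05 (1.52%), 78 higher in the mandible (0.564%) and 132 higher in the maxilla (0.954%). The largest differences among named genes were a 41.4-fold lower level of Alx1 in the mandible and an 11.2-fold higher level of the Dlx6 antisense RNA Dlx6os1. All 210 had the same sign, with no overlap between the jaws, within arrays 1 and 2 and within arrays 3 and 4, and 123 did not overlap over all 8 arrays. Over all genes tested, 13.4% did not overlap within both array sets and 3.39% did not overlap over the 8 arrays. Because the 210 were called on these same 8 arrays, their separation largely follows from the call and is not a replication. The median difference over all genes was -0.01 on the log2 scale, on which all differences are given as mandible minus maxilla with the standard error (SE) of the fit, n = 4 arrays a jaw. The difference passed 1 log2 unit in 39 of the genes higher in the mandible and in 63 of those higher in the maxilla.

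The number of calls depended on single arrays. Leaving out 1 array gave from 17 calls without mandible array 4 to 344 without maxilla array 4, with 43 without mandible array 1, 53 without mandible array 2 or 3 and 78 without maxilla array 1. Arrays 1 and 2 and arrays 3 and 4 were taken as separate array sets, which the sample titles do not name. The excess of 3' over 5' control probe sets for Gapdh and beta-actin, a measure of RNA quality, lay between 0.78 and 1.17 in arrays 1 and 2 and under 0.17 in arrays 3 and 4, and arrays correlated at 0.968 to 0.992 within sets and at 0.915 to 0.952 between sets over all genes tested. Control probe sets for the hybridisation averaged 11.58 to 12.10 in arrays 1 and 2 and 9.03 to 9.51 in arrays 3 and 4. The mean of the tendon genes was 6.82 to 7.19 and 8.63 to 9.10, and that of the erythroid markers 10.52 to 11.26 and 9.22 to 9.29. What lies behind these shifts was not tested. The array set was therefore a term of the fit, and without it 14 genes passed. With the 3' excess as a further term 51 passed, and with the sex of the sample, read from Xist and balanced between the jaws, 95 passed. Of the 50 called genes named below, 29 kept their call with the sex term, 23 with the 3' excess and 9 without the array set. Sex and array set are both balanced between the jaws, so neither term moves a difference, and Hand2 stayed at 3.39. Calls lost with the sex term or without the array set thus reflect the spread and the degrees of freedom. The 3' excess moves the differences as well (Hand2 3.29). Array medians lay between 6.76 and 6.88. Precision is limited by the small number of arrays. All 10 facial mesenchyme markers measured lay above the filter level of 6.07 on all 8 arrays.

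Some arrays stood against their labels. The array labelled control mandible proximal 2 held Hoxa2 at 4.05 and Alx1 at 11.64, whereas control mandible proximal 1 held Hoxa2 at 9.92 and Alx1 at 5.52. The arrays labelled control mandible distal showed the opposite order, with Hoxa2 at 5.10 and Alx1 at 11.19 in number 1 and Hoxa2 at 9.93 and Alx1 at 5.65 in number 2. Over all genes, control mandible proximal 2 correlated at 0.989 with the mean of the distal and at 0.974 with that of the proximal knockout mandible arrays 3 and 4, and control mandible distal 2 at 0.979 and 0.990. Control maxilla proximal 2 lay nearer the distal mean too, at 0.988 against 0.978, and control maxilla distal 1 lay nearer the proximal mean, at 0.971 against 0.965. Both proximal controls numbered 1 lay nearer the proximal mean of their jaw. The labels were kept, and the counts of comparisons that take their spread from the controls are given with all arrays and without the 4 control arrays numbered 2. All 4 proximal knockout mandible arrays correlated more closely with the other proximal mandible array of their set (0.992) than with the mean of the 2 distal ones (0.980 to 0.986). The proximal maxilla arrays were less alike, at 0.984 for arrays 1 and 2 and 0.969 for arrays 3 and 4, and arrays 1, 3 and 4 came as near or nearer to the mean of the 2 distal maxilla arrays of their set (0.985, 0.987 and 0.973). The proximal value is against 1 array and the distal value against a mean of 2, which is less noisy, so the 2 values are not like measures. These comparisons stay within a set. They would read the same if the ends of all arrays of a jaw in that set were exchanged, so they do not check the end labels of a whole set.

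The start regions of 4 called genes described below are shown, to let their letters be read beside the values. They are the 250 bases before the RefSeq start of Hand2, Gbx2 and Gsc, which were higher in the mandible, and of Neurod1, which was higher in the maxilla, written 5′ to 3′ on the strand of the gene (assembly GRCm38.p6). Of the 10 genes looked up, these 4 matched an entry. Capitals mark matches on either strand to TAATTA, the core of many homeodomain sites, to CATCTG, an E-box bound by Hand and Twist factors, and to TATAAA, the TATA box.
Hand2 (chr8:57320733-57320982, plus strand): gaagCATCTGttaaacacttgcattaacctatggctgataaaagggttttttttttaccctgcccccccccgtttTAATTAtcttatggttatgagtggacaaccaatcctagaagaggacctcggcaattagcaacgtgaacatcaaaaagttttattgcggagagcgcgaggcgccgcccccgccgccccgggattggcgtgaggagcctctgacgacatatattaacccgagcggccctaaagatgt
Gbx2 (chr1:89931177-89931426, minus strand): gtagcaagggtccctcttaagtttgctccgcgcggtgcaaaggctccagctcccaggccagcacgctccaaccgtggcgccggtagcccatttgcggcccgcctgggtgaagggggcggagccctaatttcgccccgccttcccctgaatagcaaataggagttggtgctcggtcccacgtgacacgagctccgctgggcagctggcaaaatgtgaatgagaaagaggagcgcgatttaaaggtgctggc
Gsc (chr12:104473237-104473486, minus strand): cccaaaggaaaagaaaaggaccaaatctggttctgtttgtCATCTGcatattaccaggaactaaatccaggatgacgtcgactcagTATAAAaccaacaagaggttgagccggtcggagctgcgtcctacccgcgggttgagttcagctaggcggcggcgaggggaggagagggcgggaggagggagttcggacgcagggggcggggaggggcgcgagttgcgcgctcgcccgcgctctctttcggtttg
Neurod1 (chr2:79456637-79456886, minus strand): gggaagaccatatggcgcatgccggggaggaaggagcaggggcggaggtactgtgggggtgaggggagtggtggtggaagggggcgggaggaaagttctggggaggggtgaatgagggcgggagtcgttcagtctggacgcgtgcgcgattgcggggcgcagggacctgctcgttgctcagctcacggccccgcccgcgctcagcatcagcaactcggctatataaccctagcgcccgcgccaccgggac
The Hand2 window held 1 TAATTA and 1 CATCTG, the Gsc window 1 CATCTG and 1 TATAAA, and the Gbx2 and Neurod1 windows none of these letters. Among 32851 RefSeq windows of 250 bases, 4.84% held TAATTA, 14.4% CATCTG and 12.4% TATAAA, and in the 4 windows no match overlapped another. A match is a description of the letters only.

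The Dlx genes split into a group that was high in the mandible and a pair that was not shown to differ. Of the 6 members, all tested, 4 were called higher in the mandible, against 0.564% of all genes, and none in the maxilla, and the list's median difference was 2.16 against -0.01 over all genes. Dlx3, a homeobox gene of the lower arch, read 10.79, 10.76, 10.03 and 10.40 in mandible arrays 1 to 4 and 8.83, 8.70, 7.74 and 7.83 in maxilla arrays 1 to 4, a difference of 2.22 ± 0.12 (adjusted p = 0.00142, 4.66-fold). Dlx4, its neighbour on chromosome 11, read 8.49, 8.06, 8.46 and 8.89 against 5.93, 5.70, 5.54 and 6.43 and differed by 2.57 ± 0.21 (adjusted p = 0.00262). Second probe sets of Dlx3 and Dlx4 gave 1.35 and 2.88. In both genes the mandible arrays all lay above the maxilla arrays, and the Dlx3 levels of arrays 1 and 2 were higher than those of arrays 3 and 4 in both jaws. Dlx5 read 11.48, 11.16, 11.14 and 11.45 in the mandible and 9.30, 8.48, 9.25 and 9.81 in the maxilla, a difference of 2.10 ± 0.23 (adjusted p = 0.0111). Dlx6, paired with Dlx5 on chromosome 6, read 10.19, 9.99, 9.94 and 10.44 against 7.67, 7.43, 6.88 and 7.94 and differed by 2.66 ± 0.23 (adjusted p = 0.00339, 6.32-fold). No maxilla array reached the lowest mandible array in either gene. Dlx1 read 10.49, 10.16, 9.97 and 10.13 in the mandible and 9.73, 9.63, 10.16 and 9.97 in the maxilla, and its difference of 0.32 ± 0.15 did not pass (adjusted p = 0.420). Dlx2 differed by 0.24 ± 0.08 (adjusted p = 0.246), and in both genes the jaws overlapped.

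RNAs made beside the Dlx genes were called too. The antisense transcript Dlx6os1, which is made across the Dlx5 and Dlx6 locus, read 9.79, 9.52, 10.52 and 10.45 in the mandible and 6.20, 5.84, 5.81 and 8.48 in the maxilla, a difference of 3.49 ± 0.49 (adjusted p = 0.0222). Maxilla array 4, at 8.48, stood apart from the other three. Dlx4os was higher by 2.95 ± 0.24 (adjusted p = 0.00262) and Dlx1as by 3.39 ± 0.60 (adjusted p = 0.0432), although Dlx1 itself did not pass. Dlx1as read 11.45, 11.62, 11.05 and 11.06 in the mandible and 6.21, 8.06, 7.72 and 9.62 in the maxilla, where it varied most. Chosen after their values were seen, Tac1, the tachykinin precursor, and Dync1i1, a dynein chain, which lie near Dlx5 and Dlx6 on chromosome 6, were also higher in the mandible, by 1.48 ± 0.17 (adjusted p = 0.0116) and 1.12 ± 0.14 (adjusted p = 0.0167). Over all chromosomes 15 pairs of neighbouring measured genes were both called, 13 of them in the same direction. Tac1, Dync1i1 and Dlx5 are in no such pair, and some pairs are a gene with its own antisense RNA, such as Dlx6 with Dlx6os1. How many pairs the same number of genes placed at random would give was not worked out, so this count has no background beside it. Dlx3, Dlx4, Dlx6 and Dlx4os kept their call whichever of the 8 arrays was left out. Dlx5 lost it without mandible array 4 (adjusted p = 0.0661), while Dlx6os1 kept it in 2 of the 8 leave-outs, Dlx1as in 1, Tac1 in 6 and Dync1i1 in 4, with Dlx1as at adjusted p = 0.141 without mandible array 2. Dlx3 to Dlx6 and Dlx4os kept their call with the sex term and with the 3' excess, Dlx6os1 lost it with the 3' excess (adjusted p = 0.0540), and Dlx1as lost it with either (adjusted p = 0.0840 with the sex term and 0.141 with the 3' excess). Without the array set Dlx3 stood at adjusted p = 0.0545.

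**Figure D1:**
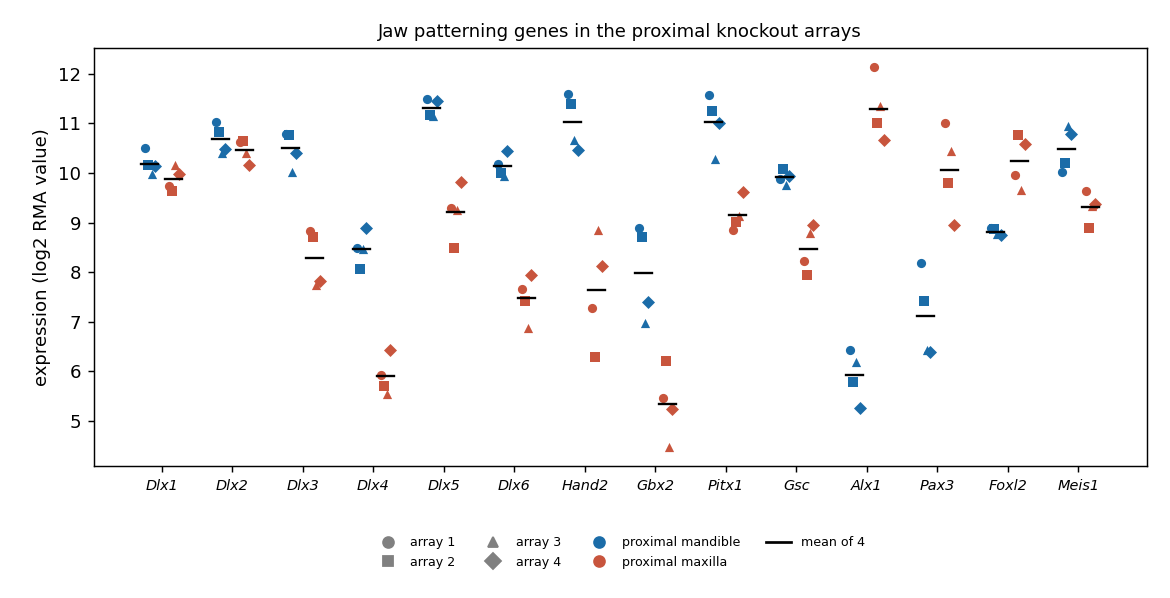
Log2 RMA levels of 14 patterning genes on the 8 proximal knockout arrays, mandible in blue and maxilla in red, with the array number as the symbol and the mean of 4 as a bar. Dlx3 to Dlx6, Hand2, Gbx2, Pitx1, Gsc and Meis1 sit higher in every mandible array, Alx1, Pax3 and Foxl2 in every maxilla array, and Dlx1 and Dlx2 overlap.

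Of the mandibular effectors, 4 of 12 tested members were called, all higher in the mandible (0.564% of all genes), with a list median of 0.43. Hand2, a basic helix-loop-helix factor needed for the lower jaw, read 11.60, 11.39, 10.66 and 10.46 in the mandible and 7.27, 6.29, 8.86 and 8.13 in the maxilla and differed by 3.39 ± 0.53 (adjusted p = 0.0301, 10.5-fold). Gbx2, a homeobox gene that is a target of Dlx5 and Dlx6, read 8.88, 8.70, 6.97 and 7.40 against 5.47, 6.22, 4.47 and 5.24 and differed by 2.64 ± 0.24 (adjusted p = 0.00511). The jaws did not overlap in either gene, although Gbx2 was lower in mandible arrays 3 and 4 than in 1 and 2. Pitx1, a paired-like homeobox gene of the mandible and hindlimb, read 11.57, 11.24, 10.28 and 10.995 in the mandible and 8.84, 9.001, 9.12 and 9.62 in the maxilla, a difference of 1.87 ± 0.28 (adjusted p = 0.0265). Gsc, a homeobox repressor, read 9.88, 10.08, 9.75 and 9.93 against 8.22, 7.93, 8.78 and 8.95 and differed by 1.44 ± 0.19 (adjusted p = 0.0176). In these genes too every mandible array lay above every maxilla array. Bmper, a secreted BMP modulator, had a difference of 1.09 ± 0.22 that did not pass (adjusted p = 0.0627), and Hand1 stood at 6.82 ± 0.19 in the mandible and 6.77 ± 0.22 in the maxilla (SD, n = 4). The other members not called were Cited1, Unc5c, Bambi, Rgs5, Rspo2 and Alx4, with differences from -0.71 (Rgs5) to 0.47 (Unc5c). Gbx2 kept its call in all 8 leave-outs, Gsc in 4, and Hand2 and Pitx1 in 3. Without mandible array 2 Hand2 stood at adjusted p = 0.113, and without mandible array 4 Pitx1 stood at 0.116 and Gsc at 0.0831. Gbx2 kept its call with the sex term and with the 3' excess. Hand2 lost it with either (adjusted p = 0.0622 and 0.107), as did Pitx1 (0.0566 and 0.0961), and Gsc lost it with the 3' excess (0.0667).

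None of the 6 tested members of the endothelin pathway was called, where 1.52% of all genes were. Their differences ran from -0.20 to 0.14 with a median of -0.09. Edn1, the ligand made by arch epithelium and core mesoderm, stood at 6.64 ± 0.25 in the mandible and 6.84 ± 0.49 in the maxilla (SD, n = 4). Mef2c, a transcription factor downstream of the receptor, stood at 9.92 ± 0.51 and 10.001 ± 0.99. The receptor gene Ednra was not analysed here.

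Genes of the upper face were led by Alx1. Of the 6 frontonasal genes, all tested, 3 were called, all higher in the maxilla (0.954% of all genes), and all 6 differences were negative with a median of -0.72. Alx1, an aristaless-like homeobox gene of the frontonasal mesenchyme, read 6.42, 5.80, 6.19 and 5.26 in the mandible and 12.14, 11.01, 11.35 and 10.66 in the maxilla, a difference of -5.37 ± 0.32 (adjusted p = 0.00146). A second Alx1 probe set gave -5.03. On mandible arrays 2 and 4 Alx1 lay below the filter level of 6.07, so its low side is near the background of the array. Pax3, a paired-box gene of neural crest and muscle precursors, read 8.19, 7.43, 6.43 and 6.38 in the mandible and 11.01, 9.81, 10.44 and 8.94 in the maxilla, a difference of -2.94 ± 0.40 (adjusted p = 0.0184). Six2 differed by -0.94 ± 0.14 (adjusted p = 0.0265), while Pax7, Tfap2a and Tfap2b were not called. Alx1 kept its call in all 8 leave-outs, Six2 in 4 and Pax3 in 3, with Pax3 at adjusted p = 0.0952 and Six2 at 0.116 without mandible array 4. Alx1 kept it with the sex term and with the 3' excess, Pax3 lost it with the 3' excess (adjusted p = 0.0738) and Six2 with either (0.0587 and 0.0830).

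The list of maxillary genes did not move one way. Of 8 tested members 2 were called higher in the mandible and 1 in the maxilla, where 0.564% and 0.954% of all genes were, with a median of 0.17. Foxl2, a forkhead gene, was higher in the maxilla, at 9.96, 10.75, 9.66 and 10.58 against 8.88, 8.87, 8.77 and 8.75 in the mandible (-1.42 ± 0.23, adjusted p = 0.0320). Meis1, a homeobox cofactor of Hox and Pbx proteins, was higher in the mandible, at 10.03, 10.21, 10.94 and 10.78 against 9.64, 8.88, 9.34 and 9.37 in the maxilla (1.18 ± 0.19, adjusted p = 0.0342), and so was the nuclear receptor Nr2f2, by 0.97 ± 0.18 (adjusted p = 0.0453). Neither gene overlapped between the jaws. Pou3f3, which is known as a marker of the maxillary part of the arch, read 10.34, 10.30, 11.37 and 11.38 in the mandible and 11.22, 11.47, 11.52 and 11.19 in the maxilla and did not pass (-0.50 ± 0.21, adjusted p = 0.339), and only arrays 1 and 2 separated the jaws. Nr2f1, Irx3, Irx5 and Meis2 had differences of 0.16 (Irx3) to 0.49 (Nr2f1) and were not called. Foxl2 and Nr2f2 kept their call in 2 of the 8 leave-outs and Meis1 in 1, and without mandible array 4 they stood at adjusted p = 0.121, 0.167 and 0.134. With the sex term all 3 lost their call (adjusted p = 0.0659, 0.0857 and 0.0592), and with the 3' excess Foxl2 and Nr2f2 did (0.0902 and 0.154).

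Oral mesenchyme and palate genes that were called were higher in the maxilla. In the list of 12 oral mesenchyme homeobox and T-box genes 3 were called, all higher in the maxilla (0.954% of all genes), 11 of 12 differences were negative and the median was -0.60. Lhx6, a LIM homeobox gene of the tooth-forming and oral side of both jaws, read 8.80, 8.27, 7.58 and 8.08 in the mandible and 9.81, 10.01, 10.54 and 9.48 in the maxilla (-1.78 ± 0.28, adjusted p = 0.0315). Its partner Lhx8 differed by -1.26 ± 0.31 without passing (adjusted p = 0.109). The T-box repressors Tbx2 and Tbx3 differed by -1.34 ± 0.22 (adjusted p = 0.0323) and -1.36 ± 0.23 (adjusted p = 0.0364), although over all 8 arrays both overlapped. Of 10 palatal shelf genes only Tbx22, a T-box gene whose loss causes cleft palate, was called, at 8.58, 8.16, 7.58 and 8.01 in the mandible and 9.42, 9.83, 10.72 and 9.81 in the maxilla (-1.86 ± 0.31, adjusted p = 0.0345). The median of that list was 0.07. Of 8 forkhead genes only Foxf1, a target of Hedgehog signalling, was called (-1.42 ± 0.22, adjusted p = 0.0273). A second Foxf1 probe set gave a smaller difference, -0.64. Of these 5 called genes, none kept its call without mandible array 1, 3 or 4 or without maxilla array 1, where adjusted p reached 0.134, 1 did without mandible array 2 or maxilla array 2, and all 5 did without maxilla array 3 or 4. All 5 lost their call with the sex term (adjusted p = 0.0538 to 0.0621) and with the 3' excess (0.0527 to 0.106).

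**Figure D2:**
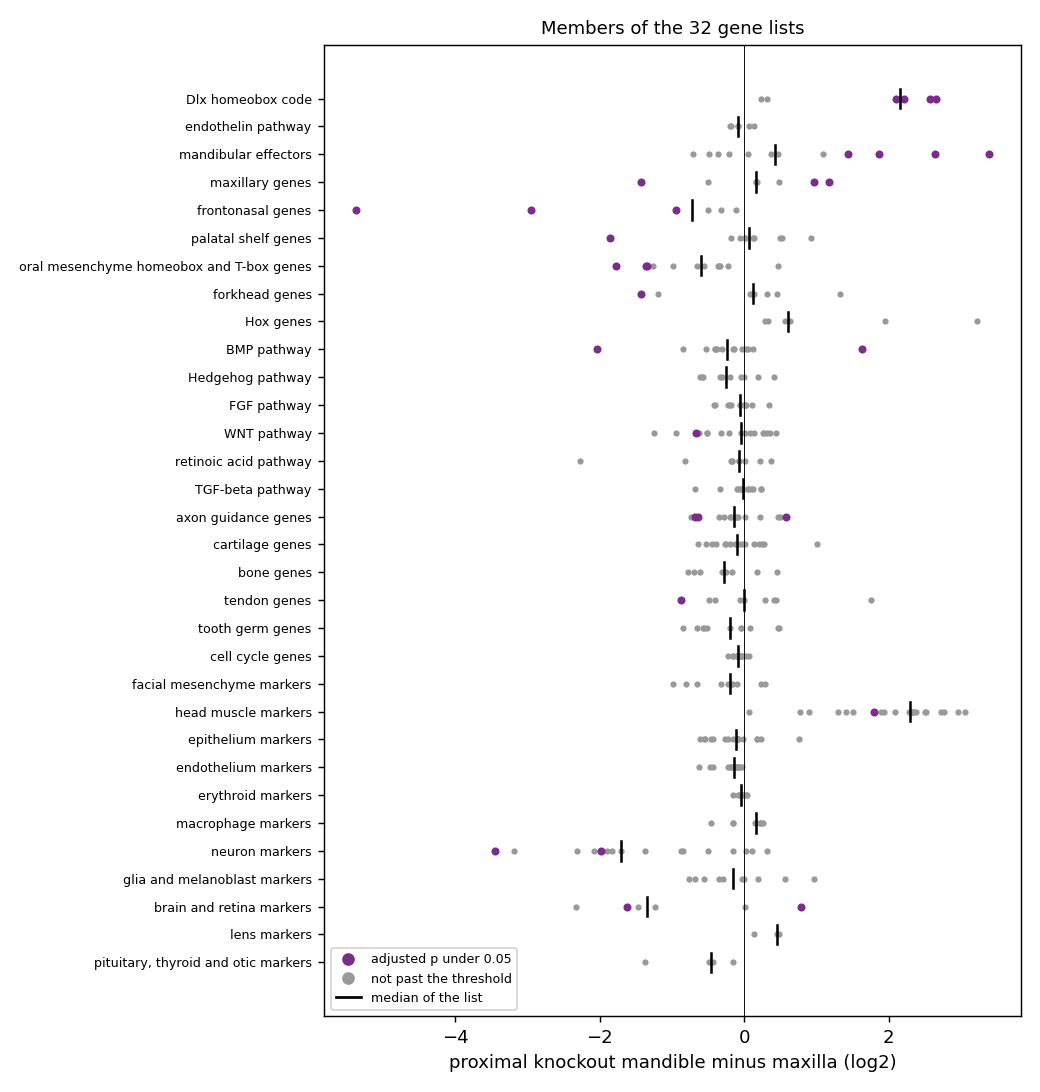
Log2 difference between proximal knockout mandible and maxilla for every tested member of the 32 lists, called genes in purple and list medians as bars. The Dlx list has its median at 2.16 and the head muscle list at 2.29, the neuron list at -1.71, and most signalling lists lie near 0.

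None of 6 tested members of the Hox list was called, where 1.52% of all genes were, and all 6 differences were positive with a median of 0.60. Hoxa2, which specifies the second arch, read 4.24, 5.44, 9.88 and 9.80 in the mandible and 4.08, 4.06, 4.07 and 4.24 in the maxilla, so that it was high in mandible arrays 3 and 4 alone (3.23 ± 0.91, adjusted p = 0.158). The difference between the array sets in Hoxa2 was -4.91 ± 2.06 and did not pass with all arrays in the fit (adjusted p = 1.000), whereas without the 4 control arrays numbered 2 it was -4.91 ± 0.40 (adjusted p = 0.00112). Hoxb2 read 6.11, 6.57, 8.71 and 8.51 against 5.42, 5.40, 5.19 and 6.08 and did not overlap between the jaws, at 1.95 ± 0.41 (adjusted p = 0.0723). In the distal knockout mandible Hoxa2 stood at 6.62 and 6.47 in arrays 1 and 2 and at 4.75 and 4.59 in arrays 3 and 4, the reverse of the order at the proximal end. Hoxd8, outside the list and chosen after its values were seen, was called higher in the mandible (1.27 ± 0.09, adjusted p = 0.00186), with 6.58, 6.78, 9.83 and 9.84 in the mandible and 5.56, 5.57, 8.34 and 8.49 in the maxilla. Its levels were higher in arrays 3 and 4 than in 1 and 2 in both jaws, and within each array set the jaws did not overlap. Whether the Hoxd8 call holds in the leave-outs, with the sex term or with the 3' excess is not given here.

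Over 7 signalling and guidance lists 6 of 97 genes were called (6.19%, against 1.52% of all genes), all of them in the BMP, WNT and axon guidance lists. None was called among 14 TGF-beta pathway genes (median -0.02), 10 Hedgehog genes (median -0.25), 12 FGF genes (median -0.06) or 11 retinoic acid genes (median -0.07). Tgfbr1, whose deletion both groups carry, read 12.41, 12.30, 12.51 and 12.32 in the mandible and 12.40, 12.35, 12.52 and 12.33 in the maxilla. Whether its probe sets lie in the deleted part is not known here, so its level checks no label. Aldh1a3, a retinoic acid synthesis enzyme of the upper face, read 5.10, 4.93, 7.56 and 7.63 against 8.83, 8.06, 9.19 and 8.25 without overlap and did not pass (-2.28 ± 0.47, adjusted p = 0.0679). Its other probe sets gave smaller differences, -0.76 and -0.84.

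In the BMP list 2 of 14 were called, in opposite directions, where 1.52% of all genes were, and the median was -0.23. The type I receptor Bmpr1b read 10.61, 10.61, 10.09 and 10.34 in the mandible and 8.85, 9.02, 8.15 and 9.10 in the maxilla, a difference of 1.63 ± 0.19 (adjusted p = 0.0116). Id4, an inhibitor of basic helix-loop-helix factors, was higher in the maxilla (-2.03 ± 0.30, adjusted p = 0.0265), at 6.79, 6.85, 10.26 and 9.81 in the mandible against 9.94, 8.66, 11.47 and 11.76 in the maxilla, with higher levels in arrays 3 and 4 in both jaws. In the WNT list only the Wnt agonist Rspo3 was called, of 17 genes (-0.66 ± 0.10, adjusted p = 0.0301). Among 19 axon guidance genes the repellent Sema3a was higher in the mandible (0.58 ± 0.09, adjusted p = 0.0261), and the repellent Slit2 (-0.67 ± 0.12, adjusted p = 0.0411) and the semaphorin receptor Nrp2 (-0.64 ± 0.10, adjusted p = 0.0333) were higher in the maxilla. Cartilage (16 genes), bone (8), tooth germ (11) and cell cycle genes (14) held no called member, where 1.52% of all genes were called. Their medians were -0.09, -0.28, -0.19 and -0.08. Of 9 tendon genes only the proteoglycan Kera was called (-0.88 ± 0.14, adjusted p = 0.0315). Of the 7 genes called here none kept its call without mandible array 1, 2 or 4, 1 did without mandible array 3, 2 did without maxilla array 1 or 2, and all 7 did without maxilla array 3 or 4. Their adjusted p reached 0.147, for Slit2 without mandible array 4. Bmpr1b kept its call with the sex term and with the 3' excess, Rspo3, Slit2 and Nrp2 lost it with either, Id4 with the sex term (adjusted p = 0.0521) and Sema3a and Kera with the 3' excess (0.0675 and 0.0527).

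Muscle, neuron and brain markers held 5 called genes, and in whole tissue more cells of a type and more RNA per cell cannot be told apart. All 22 head muscle markers tested had positive differences, with a median of 2.29, but only Tcf21, a factor of the head muscle precursors, was called, where 0.564% of all genes were (1.79 ± 0.33, adjusted p = 0.0496). The mean level of the muscle markers was 8.95, 9.27, 10.22 and 9.87 in mandible arrays 1 to 4 and 6.81, 8.18, 5.91 and 9.38 in maxilla arrays 1 to 4. Maxilla array 4 thus reached above the lower mandible arrays. Tnnt2, a troponin of embryonic muscle, read 9.25, 9.66, 10.31 and 9.92 against 5.61, 7.99, 4.24 and 9.07 and did not pass (adjusted p = 0.216), nor did the muscle regulator Myod1 (adjusted p = 0.216). Of the markers, 12 of 24 measured lay above the filter level on all 8 arrays, and Myf6 and Musk on none.

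Of 17 neuron markers tested 2 were called, both higher in the maxilla (0.954% of all genes), and 14 differences were negative, with a median of -1.71. Their mean level was 7.06, 6.86, 7.97 and 7.57 in mandible arrays 1 to 4 and 7.71, 9.43, 7.81 and 10.09 in maxilla arrays 1 to 4, so that maxilla arrays 2 and 4 stood highest and maxilla arrays 1 and 3 lay within the range of the mandible. Neurod1, a neurogenic helix-loop-helix factor, read 5.43, 5.33, 5.58 and 5.35 in the mandible and 8.11, 9.23, 8.50 and 9.63 in the maxilla (-3.45 ± 0.30, adjusted p = 0.00354, 10.9-fold). Its mandible levels all lay below the filter level. A second probe set gave -4.45. The RNA-binding protein gene Elavl3 was the other called marker (-1.98 ± 0.37, adjusted p = 0.0499). Stmn2, a microtubule regulator of neurons, differed by -3.18 ± 0.63 without passing (adjusted p = 0.0576). Outside the 17 markers, Nhlh2, of the same factor family as Neurod1, read 4.29, 4.14, 5.16 and 4.21 against 7.40, 7.91, 7.54 and 9.20 (-3.56 ± 0.36, adjusted p = 0.00827). The zinc finger gene Insm1 of newborn neurons and endocrine cells, also outside them, differed by -2.22 ± 0.29 (adjusted p = 0.0170).

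Of 6 brain and retina markers tested 2 were called, in opposite directions, where 1.52% of all genes were called. Six3, a forebrain and eye homeobox gene, was higher in the maxilla (-1.62 ± 0.22, adjusted p = 0.0184), and its neighbour on chromosome 17, Six2, moved the same way. Emx2, a homeobox gene of forebrain, read 10.14, 10.03, 10.36 and 10.35 in the mandible and 9.19, 9.73, 9.40 and 9.40 in the maxilla and was higher in the mandible (0.79 ± 0.13, adjusted p = 0.0328). Otx2 read 4.04, 3.87, 3.74 and 3.93 in the mandible and 7.69, 4.14, 6.76 and 6.27 in the maxilla and did not pass (adjusted p = 0.161). The markers Rax and Sox1 lay below the filter level on all 8 arrays. Epithelium (16 tested), endothelium (14), erythroid (8), macrophage (10), glia and melanoblast (10), lens (3) and pituitary, thyroid and otic markers (4) held no called gene, with medians between -0.46 and 0.45. Across the muscle, neuron and brain genes called, Neurod1 kept its call in all 8 leave-outs and Nhlh2 in 7. Insm1 and Six3 did in 4, Emx2 and Tcf21 in 2 and Elavl3 in 1, with Nhlh2 at 0.0508 and Emx2 at 0.130 without mandible array 4 and Tcf21 at 0.151 and Elavl3 at 0.161 without mandible array 2. With the sex term and with the 3' excess Neurod1, Nhlh2 and Six3 kept their call, Insm1 lost it with the 3' excess (adjusted p = 0.0629), and Emx2 (0.0530 and 0.0977), Tcf21 (0.0923 and 0.156) and Elavl3 (0.0879 and 0.156) lost it with either. Without maxilla arrays 2 and 4, in which neuron and muscle markers were highest, 556 genes passed in all, of which 174 were among the 210. That fit was added after seeing the data. It keeps 1 maxilla array in each set, so most of its spread comes from the mandible arrays, and its count cannot be set against the 210 as like with like. Whether the amount of muscle or nerve in the dissected pieces has a part in the other differences was not tested.

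**Figure D3:**
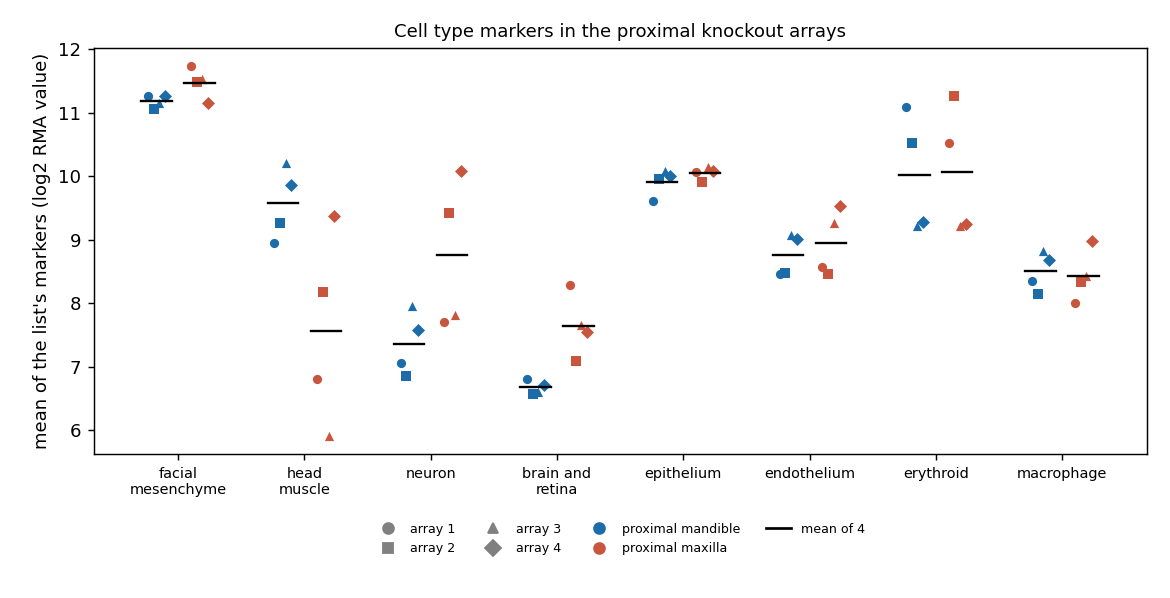
Mean log2 level of the markers of 8 tissues on the 8 proximal knockout arrays, mandible in blue and maxilla in red, with the array number as the symbol and the mean of 4 as a bar. Facial mesenchyme markers lie between 11.06 and 11.73 on all arrays, while muscle markers range from 5.91 to 9.38 and neuron markers from 7.71 to 10.09 in the maxilla.

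Further genes among the largest differences have no place in the lists. Bnc1, a basonuclin zinc finger gene, read 10.67, 10.59, 10.33 and 10.74 in the mandible and 7.87, 8.44, 7.99 and 8.41 in the maxilla (2.41 ± 0.16, adjusted p = 0.00146). Ghrh, the growth hormone releasing hormone of the hypothalamus, read 7.13, 6.99, 7.58 and 7.88 against 4.51, 4.89, 4.43 and 6.53 (2.30 ± 0.39, adjusted p = 0.0375). Neither overlapped between the jaws, and maxilla array 4 was the highest maxilla array for Ghrh. The transporter-like gene Svopl was higher in the mandible by 1.93 ± 0.15 (adjusted p = 0.00262) and the RNA-editing family member Adarb2 by 1.64 ± 0.19 (adjusted p = 0.0121). All 4 maxilla levels of these 2 genes lay below the filter level.

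Higher in the maxilla were Tmem30b, a subunit of lipid flippases, at 10.36, 9.85, 11.13 and 10.32 against 6.74, 6.86, 8.67 and 8.09 in the mandible (-2.83 ± 0.27, adjusted p = 0.00610), and the zinc finger factor Gata2, at 10.65, 8.98, 9.59 and 9.82 against 7.05, 7.37, 7.87 and 7.76 (-2.25 ± 0.34, adjusted p = 0.0265). The prostaglandin-degrading enzyme Hpgd differed by -2.08 ± 0.39 (adjusted p = 0.0496) and the leptin receptor Lepr by -1.80 ± 0.23 (adjusted p = 0.0166). Cdhr1, a cadherin of photoreceptors and olfactory neurons (-1.99 ± 0.25, adjusted p = 0.0167), the neuronal adhesion gene Mdga2 (-1.95 ± 0.22, adjusted p = 0.0116) and Dmrta2, a forebrain and olfactory factor (-1.80 ± 0.21, adjusted p = 0.0116), were also higher in the maxilla. Tmem30b, Gata2, Hpgd, Cdhr1, Mdga2 and Dmrta2 did not overlap between the jaws over the 8 arrays, and Lepr did. Of the 11 genes given in this paragraph and the one before it, Bnc1 and Svopl kept their call in all 8 leave-outs. The others kept it in 1 (Hpgd) to 7 (Tmem30b) of them, with the fewest, 2 genes, called without mandible array 4, where Hpgd stood at adjusted p = 0.164, and 3 without mandible array 1, 4 without mandible array 2 and 6 without mandible array 3. With the sex term Ghrh and Hpgd lost their call (adjusted p = 0.0603 and 0.0813), and with the 3' excess Ghrh, Hpgd, Adarb2 and Lepr did (0.107, 0.156, 0.0540 and 0.0629).

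The jaw difference within each array set was taken from a fit of all 24 arrays with a mean for each jaw end in controls, in knockouts 1 and 2 and in knockouts 3 and 4. It called 56 genes in arrays 1 and 2 (0.405%) and 10 in arrays 3 and 4 (0.0723%). Hand2 differed by 4.71 in arrays 1 and 2 and by 2.06 in arrays 3 and 4, Dlx1as by 4.40 and 2.38, and Pitx1 by 2.48 and 1.27. Dlx6 differed by 2.54 and 2.78, Gbx2 by 2.95 and 2.33, and Alx1 by -5.46 and -5.28, a similar size in both sets. The difference between the sets, tested as an interaction with limma, passed for 0 genes (0%), while 396 had an unadjusted p under 0.05, with a smallest adjusted p of 0.158. This fit takes its spread partly from the control arrays that stood against their labels. Without the 4 control arrays numbered 2 it called 167 genes in arrays 1 and 2, 160 in arrays 3 and 4 and 11 for the difference between the sets. Leaving out maxilla array 3 gave 5 calls for the difference between the sets, mandible array 4 gave 3 and mandible array 3 gave 1. In arrays 1 and 2 the count was 20, 14 and 8 without mandible array 1, mandible array 2 and maxilla array 1. In arrays 3 and 4 it was 2 without mandible array 1, 2 or 3 and 4 without maxilla array 1 or 2.

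**Figure D4:**
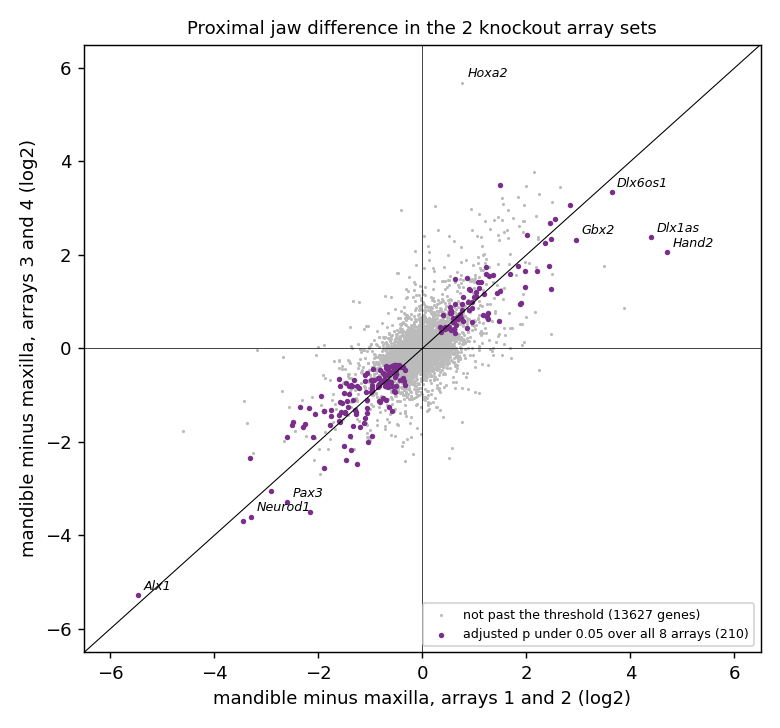
Log2 jaw difference in arrays 1 and 2 (x axis) against arrays 3 and 4 (y axis) for all 13837 genes, with the 210 genes called over the 8 arrays in purple and the line of equal differences. Alx1 lies near the line at -5.46 and -5.28, and Hoxa2 lies off it at 0.77 and 5.68.

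In the proximal controls the same jaw comparison called 2 genes (0.0145%), and 742 had an unadjusted p under 0.05. Leaving out the array labelled control maxilla proximal 2 gave 77 calls, leaving out control maxilla proximal 1 gave 10, control mandible proximal 1 gave 5 and control mandible proximal 2 gave 1, while leaving out a knockout array gave 1 to 4. Without all 4 control arrays numbered 2 there were 22. Of the 210 genes called in knockouts 183 had the same sign in the control mean, 195 in the pair of arrays numbered 1 and 150 in the pair numbered 2. Of all genes tested, 8212 and 7379 of 13837 had the sign of the knockouts in those pairs. The control mean takes in the arrays numbered 2, and the share of all genes with the same sign in it is not given here. The 183 thus have no background beside them.

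Gene by gene, the pair of control arrays numbered 1 lay close to the knockouts for some of the patterning genes. The difference in that pair was 2.11 for Dlx3, 2.37 for Dlx4, 1.76 for Pitx1, 1.42 for Gsc and -4.65 for Alx1, against 2.22, 2.57, 1.87, 1.44 and -5.37 in the knockouts. It was 0.90 for Dlx5, 1.23 for Dlx6, 0.52 for Gbx2, 2.44 for Hand2 and 0.00 for Adarb2, where the knockouts had 2.10, 2.66, 2.64, 3.39 and 1.64. In the pair numbered 2 Dlx3 differed by -0.32, Dlx4 by -0.13, Hand2 by 6.40 and Alx1 by -1.13. The difference between knockout and control, tested as an interaction, passed for 0 genes (0%), while 371 had an unadjusted p under 0.05, with a smallest adjusted p of 0.195. With limma and without the 4 control arrays numbered 2 it passed for 1 gene, the otic marker Oc90, chosen after its value was seen. Gbx2 then differed from control by 2.12 ± 0.52 (adjusted p = 0.515), Adarb2 by 1.63 ± 0.36 (adjusted p = 0.416) and Dlx5 by 1.20 ± 0.41 (adjusted p = 0.983), with SE, and with the lone control array of each jaw assumed to vary like the other groups. Leaving out maxilla array 4 gave 2 calls and leaving out control mandible proximal 2 gave 1. The sample titles name no batch. The controls were fitted as a group apart from both knockout sets, so genotype and array set cannot be told apart in this comparison. The 3' excess was 0.22 in both proximal control mandible arrays and 0.14 in both proximal control maxilla arrays.

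At the distal end of the knockout jaws the same fit called 759 genes (5.49%), 301 higher in the mandible (2.18%) and 458 in the maxilla (3.31%). Of the 210 proximal genes 177 had the same sign there, 69 were called at both ends and 4 were called in opposite directions. The share of all genes with the same sign at the 2 ends is not given here, so the 177 have no background beside them. Without the 4 control arrays numbered 2 it called 1251 genes, 465 higher in the mandible and 786 in the maxilla, and of the 210 proximal genes 107 were then called in the same direction and 9 in the opposite one. The distal count was 377, 407, 340 and 314 without distal mandible array 1, 2, 3 or 4, 2815 without distal maxilla array 1, and 266 and 457 without distal maxilla array 3 or 4. Hand2 differed by 5.26 at the distal end, Neurod1 by -4.63 and Pitx1 by 2.31, in the direction of the proximal end. The distal differences of the Dlx genes called proximally were -0.06 for Dlx3, 0.09 for Dlx4, 0.47 for Dlx5 and 1.36 for Dlx6, and the test of the difference between the ends passed for Dlx5 among these 4 (without the 4 control arrays numbered 2, for Dlx3, Dlx4 and Dlx5, at adjusted p = 0.00323, 0.00312 and 0.0148). The 2 ends differed, tested as an interaction, for 36 genes (0.26%), 17 with the more positive difference at the proximal end (0.123%) and 19 with the more negative (0.137%).

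Emx2 had the opposite sign at the 2 ends, with 0.79 at the proximal and -2.74 at the distal end (difference between the ends 3.53 ± 0.22, adjusted p = 2.11e-06). It read 5.54, 4.68, 8.96 and 8.89 in distal mandible arrays 1 to 4 and 9.46, 9.53, 10.09 and 9.97 in distal maxilla arrays 1 to 4, lowest in distal mandible arrays 1 and 2. Svopl turned from 1.93 to -1.67 (adjusted p = 0.0146), and Lhx6 from -1.78 to 1.51 (adjusted p = 0.0496). Lhx6 read 7.73, 7.82, 8.90 and 9.01 in the distal mandible and 6.02, 5.52, 7.28 and 8.62 in the distal maxilla, so its order between the jaws was the reverse of the proximal one in all 4 numbers. Dlx5 (2.10 and 0.47, adjusted p = 0.0237) and Nrp2 (-0.64 and 0.25, adjusted p = 0.0113) also differed between the ends. So did Asb4, a ubiquitin ligase subunit (-0.47 and 1.80, adjusted p = 0.000266), the orphan receptor Gpr50 (2.37 and 5.76, adjusted p = 0.0247) and the collagen gene Col8a2 (1.39 and -0.75, adjusted p = 0.0268). For Gpr50 a second probe set gave only 0.34 at the proximal end. The count fell to between 8 and 20 without any single knockout mandible array of either end, proximal maxilla array 1 or 2 or distal maxilla array 3 or 4, and rose to 85 without distal maxilla array 1, and leaving out the 4 control arrays numbered 2 gave 161. All 8 genes with an adjusted p in this paragraph then passed too, from 0.000117 for Emx2 to 0.0235 for Col8a2.

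**Figure D5:**
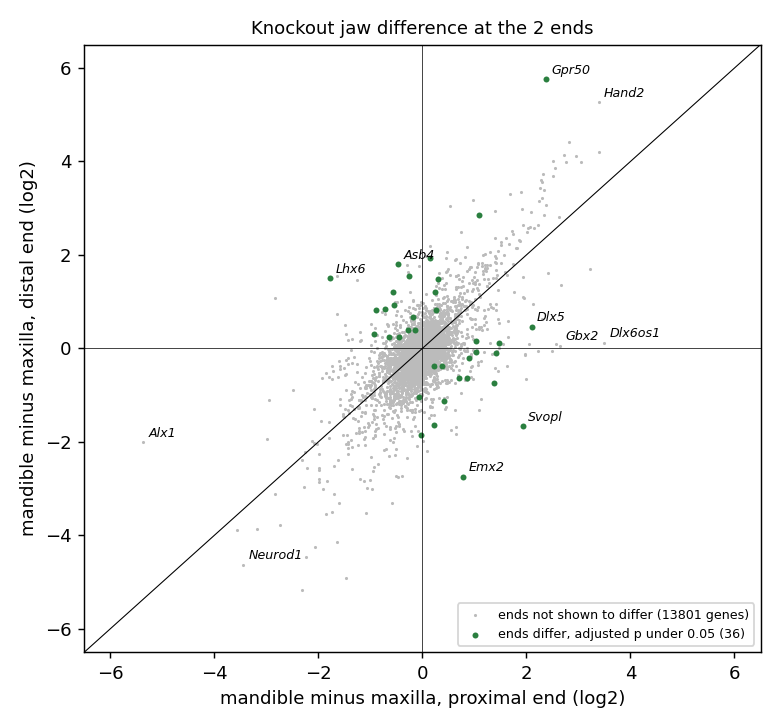
Log2 knockout jaw difference at the proximal end (x axis) against the distal end (y axis) for all genes tested, with the 36 genes whose ends differ in green and the line of equal differences. Emx2 and Svopl are positive proximally and negative distally, Lhx6 the reverse, and Hand2 and Neurod1 keep their sign at both ends.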

How the data were processed

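The deposited table holds log2 values for each probe set after RMA, which the submitters' processing notes name (version not given in the sources used here). Its 45101 probe sets include 64 control features, left out here, and 34945 with a single gene symbol (932 have several, 9160 none), of which 34741 were found in RefSeq (GRCm38.p6). Each of 18193 genes was represented by its brightest probe set, by the mean of 24 arrays, and 13837 genes above the 40th percentile of all values (6.07) on at least 2 arrays were tested. The jaws were compared with limma 3.58.1 in R 4.3.3 on the 8 proximal knockout arrays with the array set as a block (5 residual degrees of freedom), 2-sided, with Benjamini-Hochberg adjustment over all genes and a threshold of 0.05. All other comparisons were contrasts of a fit of 24 arrays with 12 means (12 residual degrees of freedom), which share one estimate of the spread. The scripts were tested on simulated data. Members, the 32 lists, the tests and most alternatives were chosen with earlier results of these data known. Genes were named by rule: the 15 largest called differences each way without overlap in either array set, the Dlx, endothelin, mandibular and maxillary lists whole, up to 4 members with the smallest p of other lists, the leading genes of each interaction, and Tgfbr1. Control labels were kept although some arrays stood against them. The replicate numbers were not taken as pairs: deviations of same-numbered arrays of the 2 jaws correlated at -0.139 in the set of numbers 1 and 2 and at 0.0678 in that of numbers 3 and 4, 1 value a set. The sexes matched across the jaws for numbers 3 and 4 and not for 1 and 2, and whether numbers share an embryo is not known.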

Additional observations from a re-analysis of the deposited data

Results flagged for a closer look

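Single arrays stood far from the other three of their group in 5 of 154 groups of values screened, where chance flags about 1 group in 20, and the values are not independent of each other. Nhlh2 stood at 5.16 in mandible array 3. Maxilla array 4 stood apart for Dlx6os1 (8.48), Hoxa2 (4.24, against 4.06 to 4.08, all near the background), Sema3a (10.51) and the mean of the pituitary, thyroid and otic markers (8.47).

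The jaw difference at the proximal end differed from that at the distal end, by the interaction test, for Emx2 (3.53), Svopl (3.60), Dlx5 (1.63), Col8a2 (2.13), Lhx6 (-3.28), Nrp2 (-0.89), Asb4 (-2.27) and Gpr50 (-3.38), as proximal minus distal on the log2 scale.

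Among 4874 probe sets that pair with no gene symbol or with several, which no comparison of genes used, 4 passed the same test of the proximal jaws.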

How the results depend on the processing

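The proximal jaw count of 210 genes stayed within 1.5 times under centring, quantile normalization, no filter, a stricter filter, the mean of a gene's probe sets and limma's trend with robust fitting. It moved to 95 with a sex term, 51 with an RNA quality term, 14 with no array set block, 136 in the fit of all arrays, 480 with the 16 knockout arrays and, added after seeing the data, 556 without maxilla numbers 2 and 4. The replicate block gave 71 and the crossed replicate block 51. Leaving out 1 array gave 17 to 344 calls. Of 50 called genes named, none changed direction under the alternatives run, but 41 lost their call with no array set block, 28 with the replicate block, 27 with the RNA quality term and 21 with the sex term. Tgfbr1, at -0.02 over the 8 arrays, ranged from -0.056 to 0.024 in the leave-outs, and was above 0 without mandible array 2 (0.0067), without maxilla array 3 (0.022) and without mandible array 4.

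Calls in arrays 1 and 2 (56) rose to 167 without the control arrays numbered 2, an alternative added after seeing the data, and ranged from 8 to 54 in the leave-outs. Calls in arrays 3 and 4 (10) became 6 with quantile normalization (5 and 1 by direction against 7 and 3), 0 with the stricter filter (612 at an unadjusted p under 0.05), 6 with the mean of probe sets, 4 with the sex term, 6 with the RNA quality term, 160 without the control arrays numbered 2, and 2 to 10 in the leave-outs. The difference between array sets (0) became 11 without the control arrays numbered 2 and 0 to 5 in the leave-outs. The difference from control (0) became 2 with knockouts 1 and 2 only, 1 without the control arrays numbered 2, and 0 to 2 in the leave-outs. The difference from the distal end (36) became 21 with the mean of probe sets or with the sex term, 114 with the replicate block, 161 without the control arrays numbered 2, and 8 to 85 in the leave-outs; centring gave 14 and 10 by direction against 17 and 19. The control jaw count (2) became 1 with no filter, with trend and robust fitting or with the sex term, 4 with the stricter filter or the RNA quality term, 22 without the control arrays numbered 2, and 1 to 77 in the leave-outs. The distal jaw count (759) became 1251 without the control arrays numbered 2 and 266 to 2815 in the leave-outs, both added after seeing the data. Where these counts moved, the cause was not tested. Genes near the background of the array have differences limited by that background. Examples are Alx1, Neurod1 and Nhlh2 in the mandible and Dlx4, Gbx2, Dlx6os1, Ghrh, Svopl and Adarb2 in the maxilla.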
